A study of Mus musculus with 10 samples.

Results

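Skeletal muscle lies under the skin of the mouse as a thin sheet, the panniculus carnosus, and piloerector muscle in the same tissue is smooth. The 39 genes described here are the contractile, energy and calcium handling genes of skeletal muscle fibres. They were taken by symbol from the 23282 entries that each library's table holds. All 39 had an entry, and each symbol occurred there once. By role they fall into 13 fast fibre genes, 6 slow fibre genes, 11 sarcomere genes that fast and slow fibres share, and 9 genes of energy metabolism and calcium release. The labels name the tissue only as skin, and do not say which muscle was sampled with it.

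The series compares 5 libraries from mice with STAT3 ablated in keratinocytes (STAT3cKO) with 5 libraries from wild-type mice (WT). All mice were C57BL/6 and 5 months of age, and total RNA of skin was sequenced with a Lexogen Quant-Seq kit. STAT3 is a transcription factor downstream of cytokine receptors. Keratinocytes are epidermal cells, so muscle fibres are outside the targeted cell type in the labels' description. The labels do not give the promoter that drives the deletion, the deleted exons, the sex, the body site, the depth of dissection, litters or batches. They also do not state that every library is a mouse of its own, so a p-value reflects the spread among these libraries, which may be technical in part. Values are the authors' log2 of scaled reads plus 1, and a change is STAT3cKO minus WT on that scale.

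Muscle fibres contract when calcium released from the sarcoplasmic reticulum binds troponin C and frees actin for myosin. Each fibre type uses its own myosin heavy chain and its own troponins. In mice the fast types use Myh4 (IIB), Myh1 (IIX) and Myh2 (IIA), and slow fibres use Myh7. IIB fibres rely most on glycolysis and hold much parvalbumin, a calcium buffer, whereas IIX and IIA fibres are more oxidative. Trunk and skin muscle of the mouse is known to be mostly fast.

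The estimated depth was 7100000 to 18500000 reads per library, with deeper and shallower libraries in both groups. STAT3cKO 2 and WT 3 had the most entries without a read in their groups, 13308 and 11441 of 23282, so no read of a gene says less there. STAT3cKO 2 also held the Y-linked Ddx3y at 10.62 with Xist at 0.06. The 4 other STAT3cKO libraries had Xist at 8.65 to 10.25, and the WT libraries had it at 9.45 to 11.01. By these genes sex was not even over the groups, and some values are therefore also given without this library. Stat3 itself had 10.25, 9.98, 10.81, 9.49 and 10.13 in STAT3cKO 1 to 5, against 9.70, 9.08, 10.27, 9.27 and 10.29 in WT 1 to 5. Its change was 0.41 (SE 0.36, adjusted p = 0.700), and because other skin cells keep the gene and the deleted exons are not given, this level does not check the labels. Klk5, an epidermal protease that the title of the study names, was not a muscle gene but was called. It had 11.84, 10.87, 10.46, 10.42 and 10.41 in STAT3cKO, against 7.97, 8.53, 9.32, 9.02 and 9.56 in WT. It rose by 1.92 (SE 0.39, adjusted p = 0.0223), with separate groups. The call held in 7 of 10 repeats that each left out 1 library, but not without STAT3cKO 1, WT 1 or WT 2, where adjusted p reached 0.0892. It was also lost with the replicate block (adjusted p = 0.0964) and without trend and robust moderation (adjusted p = 0.172).

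The 39 genes differed among libraries more than between genotypes. They took 0.160, 1.98, 0.912, 3.66 and 0.219% of the reads in STAT3cKO 1 to 5, against 0.456, 3.75, 1.32, 2.04 and 6.22% in WT 1 to 5. STAT3cKO 1 and 5 were the lowest of all 10 libraries and WT 5 was the highest, and the groups overlapped widely. The mean share was 1.39 ± 1.47% in STAT3cKO and 2.76 ± 2.29% in WT (SD, n = 5 each), a difference of −1.37 percentage points that is smaller than the SD of WT. From the lowest to the highest library the share spanned 38.8-fold over all 10, 22.9-fold within STAT3cKO and 13.7-fold within WT. Wilson 95% intervals for a library's share reached no more than 0.0178 percentage points to either side, and they cover counting error only. In whole skin, fewer muscle fibres and less of these transcripts per fibre cannot be told apart.

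**Figure D1:**
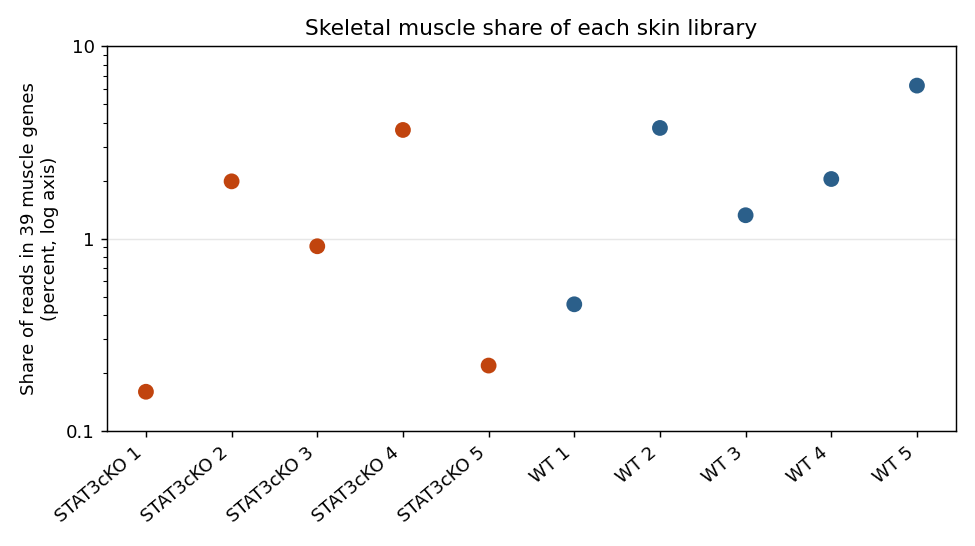
Share of each library's reads that fell in the 39 skeletal muscle genes, in percent on a log axis, 1 point per library, with STAT3cKO left of WT. Shares lie between 0.160 and 3.66% in STAT3cKO and between 0.456 and 6.22% in WT, and the groups overlap.

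Single genes showed the same spread. Of the 39 genes 36 had a value of at least 5 in at least 5 libraries and were tested, and Myh7, Tnni1 and Tnnc1 were not. The median within-group SD of the 36 tested genes was 2.03 on the log2 scale, against 1.53 for all 11536 tested genes. Muscle genes had a middle range of mean values of 8.50 to 11.9, and the 3812 tested genes in that range had a median SD of 0.636. All 36 muscle genes were above that value, from 0.963 for Tpm1 to 4.22 for Myot. Muscle genes with means outside that range were not compared at a like level. Myl2 and Tnnt1, for example, had lower means and several libraries without a read. The muscle genes also moved together from library to library. With group means removed, the correlation of each gene with the mean of the other tested muscle genes was highest for Tnnt3 (r = 0.988), Ldb3 (r = 0.986) and Tnnc2 (r = 0.978) and lowest for the slow fibre genes Tnnt1 (r = 0.128), Myl2 (r = 0.492) and Mybpc1 (r = 0.542). These r values describe 10 libraries whose genes share depth and scaling.

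**Figure D2:**
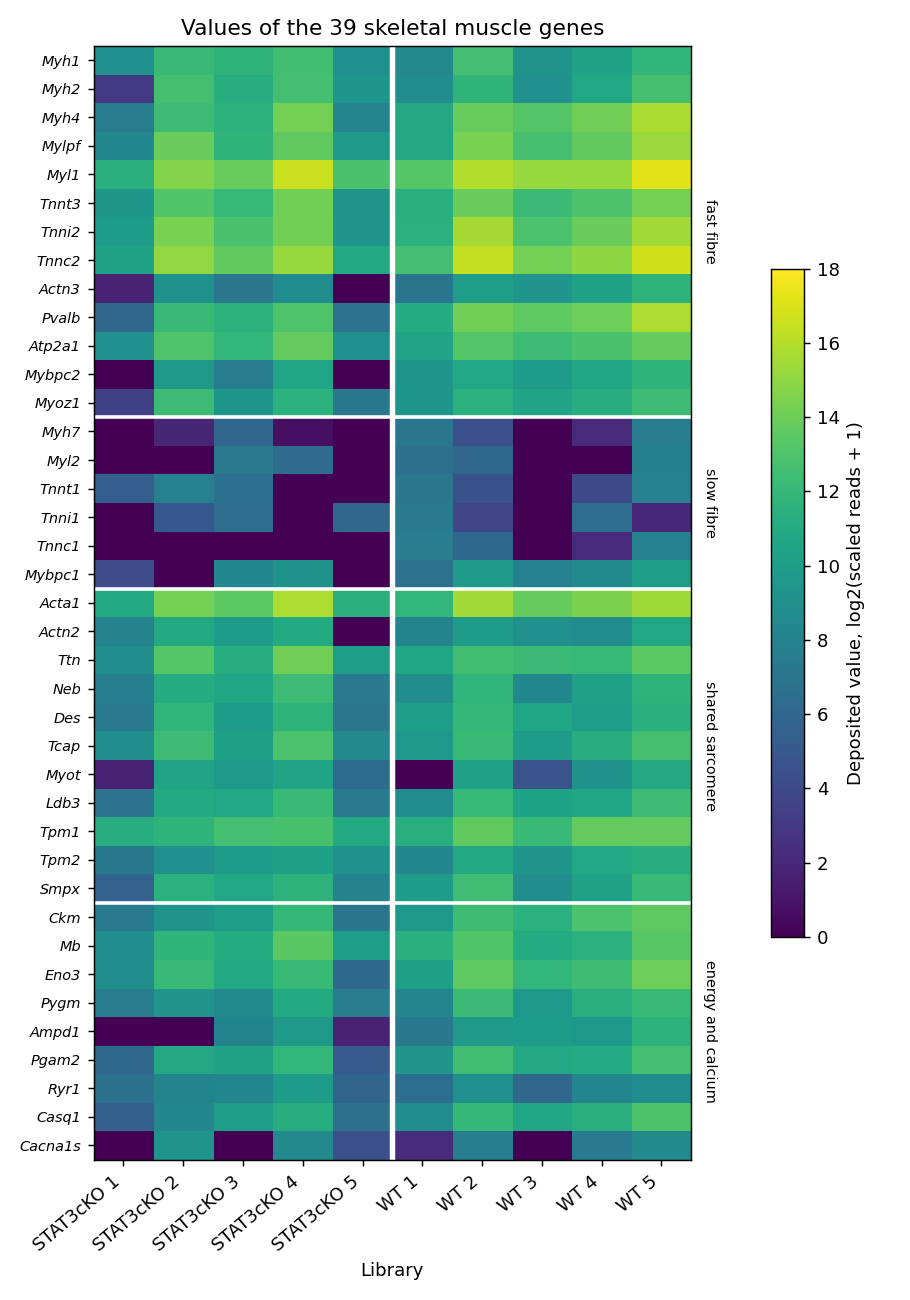
Deposited value, log2(scaled reads + 1), of each of the 39 skeletal muscle genes (rows, grouped by role) in each library (columns), with STAT3cKO left of WT. STAT3cKO 1 and 5 are dark for most genes, and the slow fibre rows are dark or patchy in both groups.

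No muscle gene passed the test between the genotypes. Of the 36 tested genes 0 had a limma adjusted p under 0.05, and over all tested genes 114 of 11536 did, or 0.988% (0.529% higher and 0.459% lower). At an unadjusted p under 0.05, 7 of the 36 were lower in STAT3cKO and 0 were higher, against 5.95% of all tested genes lower. The count of 7 rested on single libraries. It was 1 without STAT3cKO 5 or WT 5, 2 without STAT3cKO 1 or WT 2, 3 without WT 4, and 13 without STAT3cKO 4. The change was negative for 33 of the 36, against 56.2% of all tested genes, and its median was −1.32, against −0.16 for all. Without STAT3cKO 2 that median was −1.75, and without STAT3cKO 5 it was −0.82. The 7 genes were Ampd1, Actn3, Mybpc1, Ckm, Casq1, Pvalb and Mybpc2. Ranges of 0 of the 39 genes were separate between the groups, against 1.72% of tested genes whose STAT3cKO values all lay below WT and 1.71% whose values all lay above it.

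Among the fast fibre genes 12 of 13 had a negative change, with a median of −1.89, and 0 passed the test. Without STAT3cKO 1 that median was −1.13. Myosin heavy chains carry the motor of the thick filament. Myh4, the IIB chain, had 7.60, 12.33, 11.56, 14.21 and 8.17 in STAT3cKO 1 to 5, against 10.86, 13.82, 13.15, 14.10 and 15.70 in WT 1 to 5. Its change was −2.75 (95% interval −6.06 to 0.56, adjusted p = 0.542), and the groups overlapped because of STAT3cKO 2, 3 and 4. Myh1, the IIX chain, had 9.06, 12.16, 11.70, 12.53 and 9.02 in STAT3cKO, against 8.50, 12.61, 9.35, 10.37 and 11.87 in WT. For Myh1 the change was 0.35 (95% interval −1.92 to 2.62, adjusted p = 0.921), the only positive one of the class. It was −0.16 without WT 1, −0.058 without STAT3cKO 4 and 0.036 without STAT3cKO 2. Myh2, the IIA chain, had 3.07, 12.72, 11.20, 12.65 and 9.48 in STAT3cKO, against 8.79, 11.79, 9.12, 10.80 and 12.69 in WT. Myh2 was lowest in STAT3cKO 1, with 6 reads, and the sign of its change of −0.81 turned to 0.88 without that library, while without STAT3cKO 2 it was −1.54.

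Light chains stiffen the myosin neck, and fast troponins make the thin filament of fast fibres respond to calcium. Mylpf, the fast regulatory light chain, had 8.39, 13.90, 11.72, 13.63 and 9.66 in STAT3cKO, against 10.87, 14.35, 12.70, 13.58 and 15.26 in WT. Myl1, a fast alkali light chain, had 11.46, 14.64, 13.80, 16.56 and 12.83 in STAT3cKO, against 13.23, 15.92, 15.21, 15.22 and 17.23 in WT. Both were lowest in STAT3cKO 1 and highest in WT 5. Tnnt3, which binds tropomyosin, had 9.53, 13.12, 12.04, 14.14 and 9.34 in STAT3cKO, against 11.31, 13.88, 12.25, 13.00 and 14.22 in WT. Tnni2, the inhibitory subunit, had 9.95, 14.39, 12.81, 14.19 and 9.40 in STAT3cKO, against 11.49, 15.60, 12.93, 13.92 and 15.54 in WT. Tnnc2, the calcium-binding subunit, had 10.35, 15.08, 13.64, 15.23 and 10.90 in STAT3cKO, against 12.65, 16.36, 14.26, 14.96 and 16.69 in WT. All 3 troponins were below every WT library in STAT3cKO 1 and 5 and within the WT range in STAT3cKO 2, 3 and 4. Changes of these 5 genes were −1.89 for Mylpf, −1.50 for Myl1, −1.30 for Tnnt3, −1.75 for Tnni2 and −1.94 for Tnnc2, with adjusted p from 0.595 to 0.682.

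The other fast fibre genes included those with the largest changes. Pvalb encodes parvalbumin and had 5.96, 12.18, 11.57, 13.07 and 6.81 in STAT3cKO, against 11.13, 14.20, 13.55, 14.04 and 15.80 in WT. Its mean was 9.92 ± 3.28 in STAT3cKO and 13.74 ± 1.69 in WT (SD, n = 5 each), a change of −3.82 (SE 1.61, adjusted p = 0.442). Only WT 1, the WT library with the lowest share of muscle reads, fell among the STAT3cKO values of Pvalb. Atp2a1, the calcium pump that refills the reticulum of fast fibres, had 9.11, 13.07, 11.95, 13.66 and 9.00 in STAT3cKO, against 10.50, 13.16, 12.32, 12.81 and 13.77 in WT, a change of −1.15. Its exons overlap Rabep2 on the opposite strand, and the use of strand in counting is not known here. Actn3, the fast α-actinin of the Z-disc, Mybpc2, the fast myosin-binding protein C, and Myoz1, a Z-disc calsarcin, had changes of −4.30, −4.94 and −2.23 and did not pass the test. For Mybpc2 this rested on STAT3cKO 1 and 5, which had no read. Actn3 had no read in STAT3cKO 5 and was 1.80 in STAT3cKO 1. Myoz1 was 3.44 in STAT3cKO 1, and without that library its change was −0.90.

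Slow fibre genes had few reads, apart from Mybpc1 in most libraries. Their 6 genes summed to 46, 184, 688, 897 and 105 reads in STAT3cKO 1 to 5, against 1276, 1332, 177, 427 and 1247 reads in WT 1 to 5. Slow reads were 0.747, 0.182, 1.26, 0.271 and 0.433% of all fast and slow fibre reads in STAT3cKO, against 2.63, 0.359, 0.225, 0.325 and 0.369% in WT. The groups overlapped in both measures. The log2 sum of fast reads minus that of slow reads averaged 7.75 ± 1.12 in STAT3cKO and 7.69 ± 1.42 in WT (SD, n = 5 each), a difference of 0.06 that lies within the spread of either group.

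Myh7, the slow myosin heavy chain, had 0, 2, 55, 1 and 0 reads in STAT3cKO 1 to 5, against 198, 26, 0, 3 and 130 reads in WT 1 to 5. Myl2, the slow regulatory light chain, had 0, 0, 154, 107 and 0 reads in STAT3cKO, against 153, 81, 0, 0 and 141 in WT. Tnnt1, the slow troponin T, had 33, 161, 86, 0 and 0 reads in STAT3cKO, against 212, 27, 0, 12 and 156 in WT. These 3 genes were found in some libraries of each group and missing from others. Tnni1, the slow troponin I, had 0, 21, 78, 0 and 105 reads in STAT3cKO, against 271, 16, 0, 73 and 2 in WT. Tnnc1, the troponin C of slow fibres and heart, had 0 reads in all 5 STAT3cKO libraries, against 277, 87, 0, 3 and 149 in WT. Tnnc1 was thus the only slow gene found in WT alone, but it was not tested, since too few libraries reached the minimum value. Mybpc1, the slow myosin-binding protein C, had the most reads of the class in 6 of 10 libraries, with 13, 0, 316, 789 and 0 in STAT3cKO, against 165, 1095, 177, 336 and 671 in WT. Changes of the 3 tested slow genes were −1.35 for Myl2, −0.75 for Tnnt1 and −4.27 for Mybpc1, and 0 passed the test. Without STAT3cKO 2 they were −0.67 for Myl2 and −1.72 for Tnnt1.

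The 11 shared sarcomere genes had a median change of −1.02, and 0 passed the test. Acta1, the skeletal α-actin of the thin filament, had 11.00, 14.26, 13.46, 15.78 and 11.42 in STAT3cKO, against 11.90, 15.54, 13.74, 14.45 and 15.42 in WT. Its change was −1.02 (SE 1.07, adjusted p = 0.753), and the highest value of all was in a STAT3cKO library. Des, the desmin of the intermediate filaments, had 7.37, 11.82, 9.97, 11.72 and 7.17 in STAT3cKO, against 10.07, 12.01, 10.66, 10.04 and 11.41 in WT. Tpm1 and Tpm2 encode tropomyosins, which cover the myosin sites on actin. Tpm1 had 11.24, 11.74, 12.63, 12.78 and 10.93 in STAT3cKO, against 11.34, 13.61, 12.12, 13.68 and 13.66 in WT. Tpm2 had 7.31, 9.09, 9.97, 10.23 and 9.24 in STAT3cKO, against 8.33, 10.94, 9.42, 10.80 and 11.24 in WT. Des, Tpm1 and Tpm2 are also made by smooth muscle, and Tpm1 and Tpm2 had the smallest spread of the tested muscle genes. Ttn and Neb (the giant ruler proteins titin and nebulin), Tcap, Actn2, Ldb3, Myot and Smpx ranged in change from −1.36 for Actn2 to 0.79 for Myot. Actn2 had no read in STAT3cKO 5, and Myot had none in WT 1. Over left-out libraries the change ranged from −2.11 to 0.63 for Actn2 and from −0.96 to 2.29 for Myot, so neither sign held.

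The 9 genes of energy metabolism and calcium release had the most negative median of the 4 classes, −2.34, and 0 passed the test. Ckm, the muscle creatine kinase that restores ATP, had 7.38, 9.31, 10.09, 12.02 and 6.97 in STAT3cKO, against 9.57, 12.39, 11.46, 12.92 and 13.50 in WT, a change of −2.81 (SE 1.08, adjusted p = 0.384). Casq1, the calcium-storing calsequestrin of fast fibres, had 5.54, 8.35, 10.09, 11.20 and 6.66 in STAT3cKO, against 8.80, 12.02, 10.68, 11.36 and 12.98 in WT, a change of −2.80 (SE 1.17, adjusted p = 0.431). Mb, the oxygen-binding myoglobin, had 8.85, 11.80, 11.17, 13.37 and 10.09 in STAT3cKO, against 11.39, 13.14, 11.05, 11.46 and 13.32 in WT, a change of −1.02. In Ckm and Casq1 the libraries STAT3cKO 1, 2 and 5 lay below all WT libraries, and in Mb the highest value was in STAT3cKO 4. Ampd1, the muscle AMP deaminase, had the largest change of all 36 tested genes, −5.67 (SE 1.82, adjusted p = 0.176), with no read in STAT3cKO 1 and 2. Eno3, Pygm and Pgam2, enzymes of glycolysis and glycogen breakdown, had changes of −2.34, −1.90 and −2.41 and did not pass. Ryr1, the calcium release channel, and Cacna1s, its voltage sensor, had changes of 0.06 and −0.78.

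**Figure D3:**
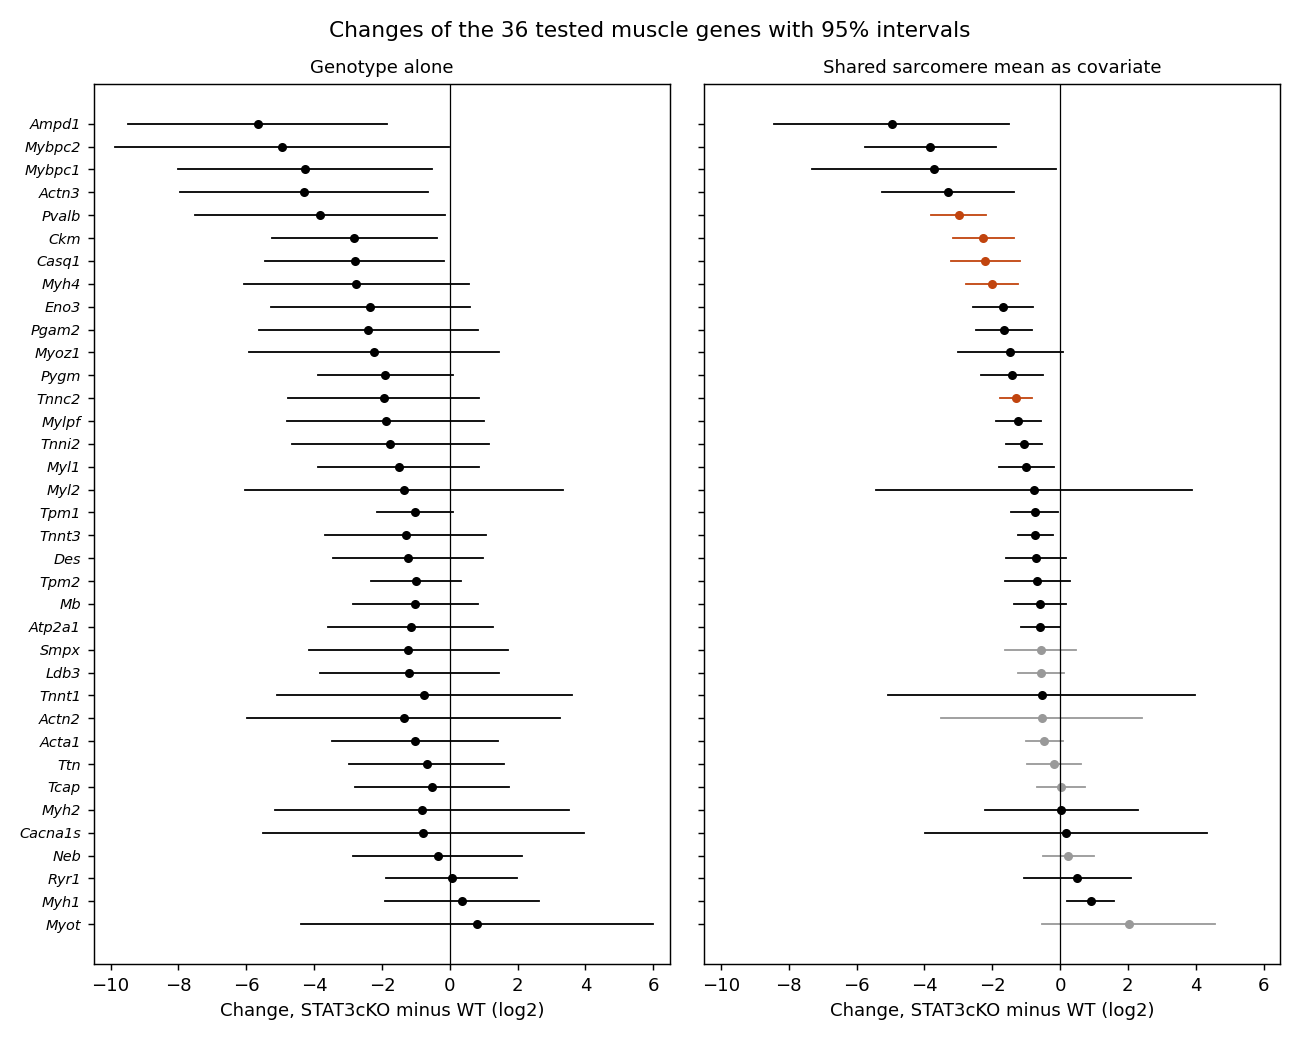
Change of each of the 36 tested muscle genes, STAT3cKO minus WT on the log2 scale, with 95% intervals, from the comparison of genotype alone (left) and with the shared sarcomere mean of each library as a covariate (right). Orange points passed an adjusted p of 0.05, grey points are the 8 genes that form the covariate, and 0 genes passed on the left against 5 on the right.

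The myosin heavy chains differed in their proportions. These proportions were examined after the values had been seen and carry no test. Annotated transcripts of the 4 genes are 6016 bases (Myh4), 6081 (Myh1), 6083 (Myh2) and 6230 (Myh7) long. They are thus of similar length, but whether reads cover the 3′ end or the whole transcript could not be settled from the labels. Myh4 gave 26.3, 31.2, 34.6, 60.6 and 18.9% of these reads in STAT3cKO 1 to 5, against 66.6, 59.6, 88.3, 84.9 and 83.5% in WT 1 to 5. The mean was 34.3 ± 15.8% in STAT3cKO and 76.6 ± 12.7% in WT (SD, n = 5 each), and the groups overlapped only in that STAT3cKO 4 was above WT 2. Myh1 gave 72.6, 27.7, 37.9, 18.9 and 34.0% in STAT3cKO, against 12.9, 25.7, 6.32, 6.42 and 5.86% in WT. Myh2 gave 1.01, 41.0, 26.8, 20.5 and 47.1% in STAT3cKO, against 15.8, 14.6, 5.41, 8.62 and 10.3% in WT. IIX and IIA chains thus made up most of the myosin heavy chain reads in 4 of 5 STAT3cKO libraries, and the IIB chain did so in 5 of 5 WT libraries. Myh7 gave at most 0.679% in a STAT3cKO library and at most 4.70% in a WT library. STAT3cKO 2, the library with Ddx3y, lay inside the STAT3cKO range in all 4 shares.

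**Figure D4:**
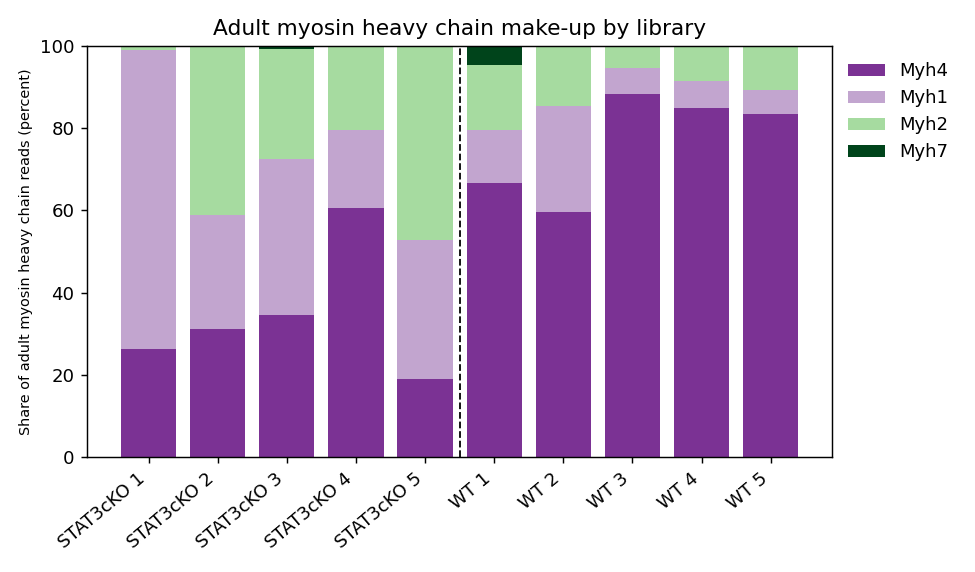
Share of Myh4, Myh1, Myh2 and Myh7 in the summed reads of these 4 adult myosin heavy chain genes, in percent, 1 bar per library, with STAT3cKO left of WT. The Myh4 part covers 18.9 to 60.6% of the STAT3cKO bars and 59.6 to 88.3% of the WT bars.

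The log2 value of Myh4 minus that of Myh1 was −1.46, 0.17, −0.14, 1.68 and −0.85 in STAT3cKO, against 2.37, 1.21, 3.80, 3.73 and 3.83 in WT. The 3 fast chains lie side by side on chromosome 11 of mm10, Myh2 at chr11:67171027-67197517, Myh1 at chr11:67200052-67224575 and Myh4 at chr11:67238029-67260446, all on the plus strand. They are close copies of each other. In the last 500 bases of the transcript, 7.54% of the 50-base words of Myh4, 16.0% of those of Myh1, 16.0% of those of Myh2 and 51.0% of those of Myh7 also occur in other genes of the annotation, for Myh7 mainly in the cardiac Myh6. Over the whole transcript the shares are 18.9% for Myh4, 26.7% for Myh1, 26.9% for Myh2 and 22.2% for Myh7. Reads of such words may have been assigned to the wrong copy, to an unequal degree among the chains. Antisense transcripts overlap exons of Myh1 (Myhas) and Myh2 (9430073C21Rik) but not of Myh4.

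The promoters of these neighbours, and that of Acta1 as a gene both fibre types use, are printed here because the chains differ in their proportions while sharing a locus. They come from RefSeq on GRCm38.p6 and run from 250 bases before the start to 50 after it. Capitals mark CANNTG, the core of sites for myogenic factors such as MyoD, and the motif of MEF2, a partner of those factors, both searched on both strands. They are chr11:67237562-67237861 (Myh4, plus strand), chr11:67199852-67200151 (Myh1, plus strand), chr11:67170777-67171076 (Myh2, plus strand) and chr8:123894726-123895025 (Acta1, minus strand).
Myh4: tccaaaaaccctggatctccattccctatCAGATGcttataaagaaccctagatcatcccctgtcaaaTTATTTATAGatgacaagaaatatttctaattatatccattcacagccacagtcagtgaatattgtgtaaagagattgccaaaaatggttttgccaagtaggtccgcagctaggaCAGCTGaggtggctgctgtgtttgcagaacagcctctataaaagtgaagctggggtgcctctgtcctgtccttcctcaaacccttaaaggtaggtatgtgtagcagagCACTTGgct
Myh1: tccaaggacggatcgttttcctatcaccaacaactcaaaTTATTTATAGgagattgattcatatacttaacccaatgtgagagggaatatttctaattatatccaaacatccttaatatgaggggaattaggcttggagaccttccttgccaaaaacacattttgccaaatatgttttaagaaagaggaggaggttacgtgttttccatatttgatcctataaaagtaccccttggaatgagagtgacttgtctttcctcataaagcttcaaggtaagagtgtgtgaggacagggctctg
Myh2: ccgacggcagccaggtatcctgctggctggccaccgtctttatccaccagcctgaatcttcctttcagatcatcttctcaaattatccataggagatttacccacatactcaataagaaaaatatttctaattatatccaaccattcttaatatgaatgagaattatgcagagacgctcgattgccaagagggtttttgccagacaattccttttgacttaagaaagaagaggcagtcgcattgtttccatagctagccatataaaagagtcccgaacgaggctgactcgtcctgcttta
Acta1: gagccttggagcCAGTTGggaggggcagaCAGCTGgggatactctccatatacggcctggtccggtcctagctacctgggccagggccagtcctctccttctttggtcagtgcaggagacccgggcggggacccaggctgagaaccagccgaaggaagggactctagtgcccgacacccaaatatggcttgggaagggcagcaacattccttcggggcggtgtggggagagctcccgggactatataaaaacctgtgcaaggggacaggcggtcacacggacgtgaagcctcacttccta

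Myh4 held 3 matches to CANNTG and 1 to MEF2, Myh1 held 0 and 1, Myh2 held 0 and 0, and Acta1 held 2 and 0. The MEF2 match begins at −182 from the start in Myh4 and at −211 in Myh1. Of all 32544 RefSeq mouse promoters of this length 72.3% hold CANNTG and 3.16% hold the MEF2 motif. The muscle genes that RefSeq promoters were given for number 31 and have 38 promoters. Of these 38 promoters 31 hold CANNTG and 5 hold MEF2. Counted by gene, 26 of the 31 hold CANNTG and 5 hold MEF2. CAGCTG, which is 1 form of CANNTG, is in 16.4% of all promoters and in 20 of the 38, or in 17 of the 31 when counted by gene. A match is a run of letters and not a site of binding. No promoter was given for Tnni2, Myot, Myoz1, Neb, Ampd1, Tnnt3, Tcap and Actn3.

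Because the share of muscle reads varied so widely, genotype was also compared with the level of shared sarcomere genes in each library as a covariate, a choice made after the data had been seen. The covariate was the mean of Acta1, Actn2, Ttn, Neb, Tcap, Myot, Ldb3 and Smpx. It was 7.38, 11.9, 10.8, 12.6 and 7.41 in STAT3cKO 1 to 5, against 8.48, 12.1, 9.65, 10.9 and 12.4 in WT 1 to 5, so STAT3cKO 1 and 5 lay below the WT range. Values at or near 0 enter this mean. Myot was 0 in WT 1, 4.59 in WT 3 and 1.80 in STAT3cKO 1, and Actn2 was 0 in STAT3cKO 5. The part of these low values in the calls was not tested. Of the 28 tested muscle genes outside the covariate 5 fell and 0 rose, against 57 of 11536 genes that fell, or 0.494%. At an unadjusted p under 0.05, 17 of the 28 were lower, against 7.06% of all genes. The covariate is made of muscle genes, so it removes spread from genes that vary with muscle content. For Pvalb the SE went from 1.61 to 0.39, while 114 of 11536 genes passed in either fit. The shares of all genes are therefore not a like background for the muscle genes. With Acta1 alone as the covariate 0 of the 28 passed, so the calls depend on which genes make up the covariate.

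Pvalb fell by 2.99 (SE 0.39, adjusted p = 0.000606), or 7.95-fold, at a given level of the covariate. It passed in 10 of 10 repeats that each left out 1 library, and with Acta1 alone as the covariate its change was −2.39 (adjusted p = 0.0522). The gene is at chr15:78191114-78206400 on the minus strand of mm10. Tnnc2, at chr2:164777161-164779967 on the minus strand, fell by 1.29 (SE 0.22, adjusted p = 0.00736) and also passed in 10 of 10 repeats, though Ube2c overlaps its exons on the other strand. Its change with Acta1 alone was −0.81 (adjusted p = 0.306). These 2 genes bind calcium, parvalbumin in the cytosol and troponin C on the thin filament.

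Myh4 fell by 2.01 (SE 0.36, adjusted p = 0.0106) and passed in 9 of 10 repeats. Ckm, at chr7:19404776-19422841 on the plus strand, fell by 2.26 (SE 0.43, adjusted p = 0.0141) and passed in 9 of 10 repeats as well, though A930016O22Rik overlaps its exons on the other strand. Without WT 3 the adjusted p was 0.0590 for Myh4 and 0.0640 for Ckm, and with Acta1 alone as the covariate it was 0.105 for Myh4 and 0.0509 for Ckm. Casq1, at chr1:172209894-172219868 on the minus strand, fell by 2.20 (SE 0.48, adjusted p = 0.0343) and passed in only 4 of 10 repeats. Its call was lost without STAT3cKO 1, STAT3cKO 2, WT 1, WT 2, WT 3 or WT 5. Exons of Casq1 are also overlapped on the other strand, by Gm17224. All 5 genes are known to be expressed more highly in fast than in slow fibres. Of the 13 fast fibre genes, however, only 3 fell. Among the others were Atp2a1 (−0.58, adjusted p = 0.421), Tnnt3 (−0.73, adjusted p = 0.216) and Myl1 (−0.99, adjusted p = 0.324). Only 3 slow fibre genes were tested, each with libraries without a read, so the calls cannot set fast against slow fibres. Just outside the threshold were Pgam2 (−1.66, adjusted p = 0.0511), Tnni2 (−1.07, adjusted p = 0.0522) and Mybpc2 (−3.83, adjusted p = 0.0576). Myh1 had a change of 0.90 (95% interval 0.21 to 1.59, adjusted p = 0.271) and Myh2 one of 0.04 (adjusted p = 0.993), so neither passed.

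Libraries with a like covariate can be set side by side. Of the pairs closest in it, the covariate was 10.8 in STAT3cKO 3 and 10.9 in WT 4. In STAT3cKO 3 Pvalb was 11.57, Ckm 10.09, Myh4 11.56 and Myh1 11.70, against 14.04, 12.92, 14.10 and 10.37 for the same genes in WT 4. It was 12.6 in STAT3cKO 4 and 12.4 in WT 5. In STAT3cKO 4 Pvalb was 13.07, Ckm 12.02, Myh4 14.21 and Myh1 12.53, against 15.80, 13.50, 15.70 and 11.87 for the same genes in WT 5. The covariate was 11.9 in STAT3cKO 2 and 12.1 in WT 2. In STAT3cKO 2 Pvalb was 12.18, Ckm 9.31, Myh4 12.33 and Myh1 12.16, against 14.20, 12.39, 13.82 and 12.61 for the same genes in WT 2. Pvalb, Ckm and Myh4 were lower in the STAT3cKO library of all 3 pairs, and Myh1 was higher in 2 of 3 and lower in STAT3cKO 2 than in WT 2. Other pairings differ: Myh4 was 14.21 in STAT3cKO 4 and 13.82 in WT 2. The pairs were picked after the values had been seen and carry no test.

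**Figure D5:**
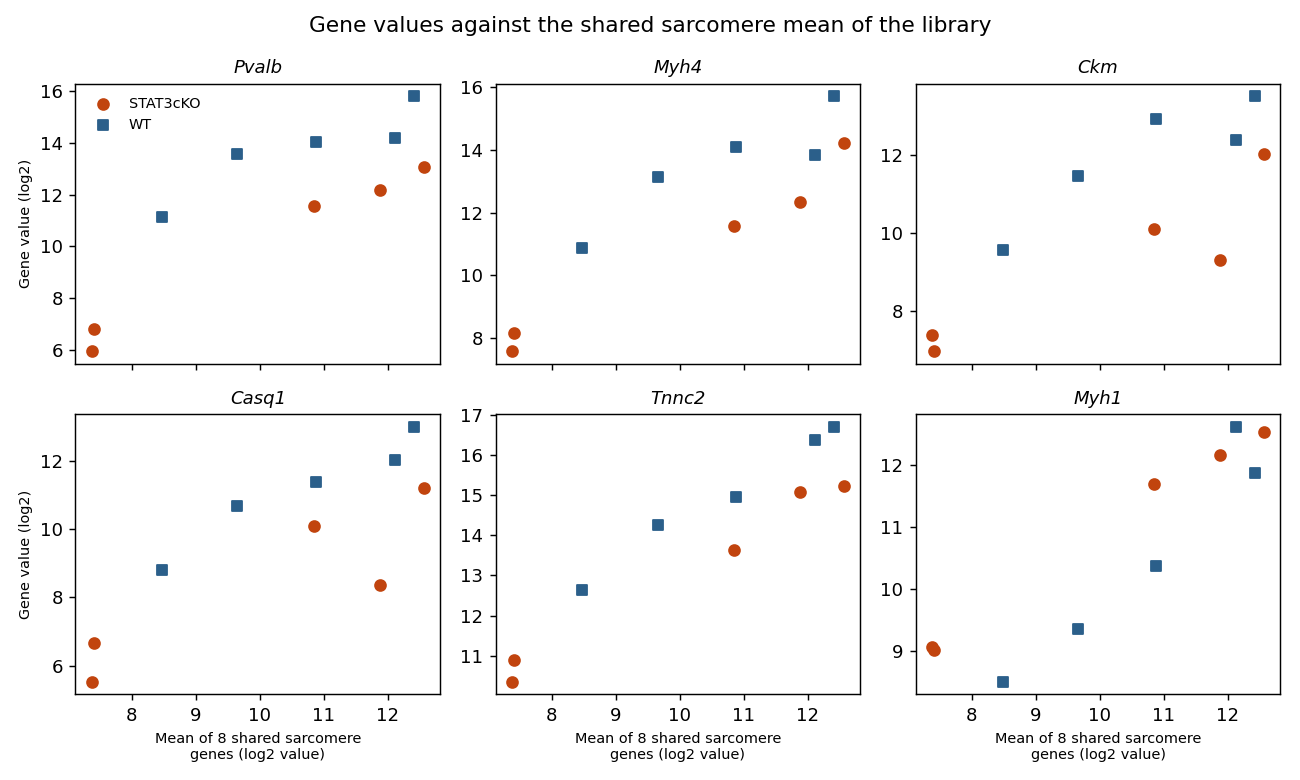
Value of 6 muscle genes (log2, vertical axis) against the mean of the 8 shared sarcomere genes in the same library (log2, horizontal axis), 1 point per library, STAT3cKO as orange circles and WT as blue squares. At like sarcomere means the STAT3cKO points of Pvalb, Myh4, Ckm, Casq1 and Tnnc2 lie below most WT points, and those of Myh1 do not.

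Set against Acta1 in the same library, 2 genes separated the groups. This comparison was not planned, reuses the values compared above and carries no test. Pvalb minus Acta1 was −5.04, −2.08, −1.89, −2.71 and −4.61 in STAT3cKO, against −0.77, −1.34, −0.19, −0.41 and 0.38 in WT. Ckm minus Acta1 was −3.62, −4.95, −3.37, −3.76 and −4.46 in STAT3cKO, against −2.34, −3.15, −2.28, −1.53 and −1.92 in WT. In both differences every STAT3cKO library was below every WT library, which held for 2 of 35 muscle genes and for 0.173% of 11535 tested genes. Before Acta1 was subtracted, 0 muscle genes and 1.72% of tested genes lay so. Subtracting Acta1 adds its spread to genes that do not vary with it and removes spread from genes that do. The share of all tested genes is therefore not a like background for the muscle genes. Mb minus Acta1 averaged −2.13 ± 0.46 in STAT3cKO and −2.14 ± 0.97 in WT (SD, n = 5 each), a difference of 0.01 within the spread.

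Other lists of muscle genes held no call. Their median within-group SD was 3.22 for other sarcomere genes, 3.11 for the triad list, 1.87 for the energy list, 1.81 for the dystrophin list and 1.51 for the myogenic list, against 1.53 for all tested genes. Of 26 tested other sarcomere genes, 16 of the triad and calcium handling, 23 of muscle energy metabolism, 12 of the dystrophin complex and costamere, and 6 of myogenic factors, satellite cells and the neuromuscular junction, 0 passed in the comparison of genotype alone. Their median changes were −0.74, −1.38, −1.49, −0.12 and 0.38 in that order. In the energy list 22 of 23 changes were negative, with Gpd1, the glycerol phosphate dehydrogenase that fat cells also make, at −1.49 (adjusted p = 0.173) and Phkg1, a phosphorylase kinase subunit, at −4.11 (adjusted p = 0.374). Among triad genes Sypl2, a junctional membrane protein, had −4.41 (adjusted p = 0.306). Atp2a2, the calcium pump of slow fibres, heart and epidermis, had 0.98 (adjusted p = 0.153) with separate groups. Actc1, the cardiac actin, had −3.94 and Myom3, an M-band protein, had 3.93. Capn3, a muscle protease, had −4.96 and Dmd, dystrophin, had 2.02, while the transcription factors Mef2a and Mef2d had 1.11 and −2.46. Adjusted p for these 6 genes ran from 0.311 to 0.664. Libraries without a read entered many changes of these lists. Sypl2 had no read in STAT3cKO 1 and 5, Phkg1 in STAT3cKO 3 and 5, and Capn3 in STAT3cKO 1, 2 and 5. Actc1 had no read in STAT3cKO 1, 2 and 3 and WT 1, and Mef2d in STAT3cKO 1, 2 and 4. Dmd and Myom3 had no read in WT 1, and without that library the change of Dmd was 0.51.

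Lists of non-muscle markers were examined beside them. The 18 adipocyte genes were all tested and all had a negative change, with a median of −2.08. At an unadjusted p under 0.05, 17 were lower, against 5.95% of all tested genes, but 0 passed the adjusted test. The mean of the adipocyte list was 9.42, 10.8, 9.24, 10.8 and 9.82 in STAT3cKO, against 13.0, 13.1, 12.9, 10.9 and 11.9 in WT, without overlap. The lowest p were those of Slc36a2, an amino acid transporter, at −3.55 (adjusted p = 0.0529) and Plin4, a lipid droplet protein, at −1.74 (adjusted p = 0.0573). In STAT3cKO the libraries highest in adipocyte genes, 2 and 4, were also highest in muscle share, whereas in WT the library lowest in muscle share, WT 1, was among the highest in adipocyte genes. The 11 tested epidermis genes all had a positive change, with a median of 1.07. At an unadjusted p under 0.05, 7 were higher, against 571 of all 11536 tested genes, but 0 passed the adjusted test. The mean of the epidermis list was 13.3, 12.0, 13.1, 12.9 and 13.2 in STAT3cKO, against 11.6, 11.3, 11.6, 11.8 and 12.1 in WT, with STAT3cKO 2 inside the WT range. Keratin 1 (Krt1) had 3.44 (adjusted p = 0.0540) and loricrin (Lor) had 1.96 (adjusted p = 0.0618). Without STAT3cKO 2, Krt1 rose by 3.89 (adjusted p = 0.0141) and Slc36a2 fell by 3.49 (adjusted p = 0.0387), so both then passed. Over the 10 repeats that each left out 1 library, however, Krt1 passed in only 2 and Slc36a2 in only 3. Adjusted p reached 0.167 for Krt1 and 0.223 for Slc36a2. Neither passed without trend and robust moderation (adjusted p = 0.161 and 0.139). With the replicate block Krt1 passed (adjusted p = 0.00134) and Slc36a2 did not (adjusted p = 0.173). The part of fat and epidermis content in the muscle results was not tested.

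Of 11 smooth muscle genes 0 passed, with a median of −0.05, and Acta2 and Mylk, smooth muscle actin and its kinase, had −0.66 and −0.38. Of 8 endothelial genes 0 passed, with a median of 0.22, Egfl7 at −1.59 (−0.14 without STAT3cKO 2) and Tie1 at −2.15. Dpt, dermatopontin of the dermal matrix, fell by 1.53 (SE 0.33, adjusted p = 0.0287) as the 1 call among 12 fibroblast genes. It had 11.46, 12.04, 11.03, 12.41 and 11.84 in STAT3cKO, against 13.80, 13.53, 13.67, 12.22 and 13.22 in WT, with only WT 4 below a STAT3cKO library. The call held in 3 of 10 repeats that left out 1 library and was lost without STAT3cKO 1, 3 or 5 or WT 1, 2, 3 or 5, with adjusted p up to 0.103. It was also lost with the replicate block (adjusted p = 0.118) and without trend and robust moderation (adjusted p = 0.283). Next to it was Dcn, decorin, at −0.89 (adjusted p = 0.322). Elovl3, a fatty acid elongase of brown fat and sebaceous glands, rose by 4.31 (SE 0.61, adjusted p = 0.00355) as the 1 call among 4 tested brown fat genes. It had 12.89, 12.52, 12.34, 13.25 and 13.65 in STAT3cKO, against 8.44, 6.20, 9.04, 10.33 and 9.07 in WT, without overlap, and passed in 10 of 10 repeats. Cidea, a lipid droplet protein, had 0.80. The median within-group SD was 2.03 for the 36 tested skeletal muscle genes and 1.63 for the smooth muscle list.

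Beyond the 39 genes, those most like them across the 10 libraries, by the correlation with the mean of the tested muscle genes after group means were removed, were Fhl1 (r = 0.982), Apobec2 (0.981), Rabep2 (0.960), Trdn (0.948), Smtnl1 (0.945), Dand5 (0.942), Cox6a2 (0.940), Mef2c (0.936), Cryab (0.935) and Tmod4 (0.929). Fhl1 is a LIM protein of muscle, Apobec2 a muscle member of the APOBEC family, Trdn the triadin of the triad, Cox6a2 the muscle form of a cytochrome oxidase subunit, Cryab a small heat shock protein of the Z-disc and Tmod4 a tropomodulin that caps thin filaments. Rabep2 overlaps Atp2a1 on the opposite strand. Of the 100 most alike genes 28 are in the muscle lists used here. Of these 10 genes 0 passed in the comparison of genotype alone, and Apobec2 fell by 1.57 (adjusted p = 0.0369) with the shared sarcomere mean as covariate. Apobec2 had 5.72, 11.28, 9.46, 11.85 and 5.78 in STAT3cKO, against 9.42, 12.79, 9.89, 10.97 and 12.67 in WT, and the groups overlapped. Its call held in 2 of 10 repeats, those without STAT3cKO 2 or WT 4, with adjusted p up to 0.168, and with Acta1 alone as covariate its change was −1.03 (adjusted p = 0.427).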

How the data were processed

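The 10 libraries were grouped by genotype from the labels. For each library the authors deposited a table of log2 values by gene symbol. No header states the unit. It was taken from the values, which behave as log2 of scaled reads plus 1. Per the submitters' processing notes, Bowtie2, bedtools and the build mm10 were used. For versions, annotation, strand use, scaling and duplicate handling, nothing is given in the sources used here. Low values lay on steps of 1 read: 88.9 to 100% of values up to 20 reads were whole within 0.15 of a read, which gave the depths and reads. Intervals from reads cover counting error only.

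A gene with a value of at least 5 in at least 5 libraries was tested with limma 3.58.1 in R 4.3.3 (genotype alone, mean trend, robust), with Benjamini-Hochberg adjustment over 11536 genes and a threshold of 0.05. A count model had been planned, but the values are scaled and logged. All adjusted p-values are from limma, and the fit of genotype alone was tested on simulated data. Changes were planted there only in genes with an SD below the median, and each gene varied on its own. Of the 36 tested muscle genes 32 had an SD above the median, so the simulation says little about them. The fits with a covariate were not simulated. The log scale understates changes of genes with few reads, and a library without a read can enlarge them. Gene positions and transcripts are from GENCODE M21 on the same build. Exons of 16 of the 39 genes are overlapped by a gene on the opposite strand.

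The 39 genes and the other lists were chosen with earlier results of these data known. Values in every library are given for 21 myosin, actin, troponin, tropomyosin, calcium and energy genes and for called genes. Of each other list up to 2 genes with the lowest p and all called genes are named, together with the 10 genes most like the muscle mean and Stat3.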

Additional observations from a re-analysis of the deposited data

Results flagged for a closer look

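Of 54 groups of 5 library values examined for a library far from the others, 1 was marked. The mean of the smooth muscle list was 6.29 in WT 3, and the nearest WT library had 8.52, so the gap took up 0.896 of the range of WT. Chance marks about 1 in 20 such groups. WT 3 also had the most entries without a read among the WT libraries. Its skeletal muscle share, 1.32% of reads, lay between those of WT 1 and WT 4.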

How the results depend on the processing

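With genotype alone, 0 of the tested muscle genes passed under every filter, scaling, pseudocount, moderation, depth class and left-out library tried. With the shared sarcomere mean as a covariate 5 passed, a number that ranged from 2 (without WT 3) to 7 (without WT 4), and with Acta1 alone it was 0; the cause was not tested. Over all genes 114 passed, against 176 after quantile normalization, 44 without trend and robust moderation, 174 in the deeper and 16 in the shallower libraries alone, and 61 to 207 over left-out libraries (61 without STAT3cKO 1, 72 without STAT3cKO 5, 62 without WT 1, 62 without WT 2, 77 without WT 3, 207 without WT 4). With the replicate block 66 genes and 0 muscle genes passed. Deviations of same-numbered libraries correlated at −0.155 to 0.016, and 0 of 5 libraries correlated best with their own number, so the numbers were not taken as pairs. The median change of muscle genes ranged from −2.02 to −0.82 over left-out libraries, that of fast fibre genes from −2.51 to −1.13 (−1.13 also in the deeper libraries alone), and that of slow fibre genes was −4.27 with a minimum value of 7, which leaves 1 gene. The difference in muscle share ranged from −1.95 to −0.50, and that of fast minus slow from −0.56 to 0.43.

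Signs turned for some single genes. Over left-out libraries changes ranged from −0.16 to 0.87 for Myh1, −1.54 to 0.88 for Myh2, −1.91 to 0.24 for Tnnt1, −0.41 to 1.82 for Smtnl1, −0.71 to 1.20 for Dand5 and −0.38 to 0.44 for Mef2c. Among the muscle genes signs also turned for Myot (−0.96 to 2.29), Actn2 (−2.11 to 0.63) and Neb (−0.97 to 0.24). The same held for Ryr1 (−0.49 to 0.54), Cacna1s (−2.07 to 0.33) and Tcap (−1.10 to 0.02). Without both STAT3cKO 2 and WT 3 they were −0.26 for Myh1, −1.28 for Smtnl1, −1.33 for Dand5 and −0.50 for Mef2c. In the deeper libraries alone they were 0.78 for Myh2, 0.12 for Myl1, 0.10 for Tpm2, 0.02 for Rabep2, −0.011 for Mef2c and 3.70 for Actc1, and in the shallower alone 2.63 for Tnnt1, −0.053 for Dand5 and 0.020 for Mylk. With the covariate Myh2 was 0.036. The planned edgeR and DESeq2 fits were not run because the deposited values are not counts, and a planned mean over slow genes with a read in every library could not be had, since 0 qualified.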
